A study of Homo sapiens with 6 samples.

Results

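MYC, JUN, JUND, FOS, EGR1, IER2 and ATF4 encode transcription regulators. In most cases their mRNAs are made quickly after a stimulus or stress and decay quickly. These 7 genes, of 20136 protein-coding genes of GENCODE, were chosen by name. Every site on the strand of the gene and wholly inside its annotated span on hg19 (GRCh37) was taken as a member site, which gave 799 sites of 10639684 over 6 libraries. A site is a stretch of the genome covered by overlapping reads, and its value is the number of reads in it. A site was given to the coding sequence, 5'UTR or 3'UTR of the gene's canonical transcript by its midpoint, and the 3'UTR as annotated includes the stop codon. Sites in introns or outside that transcript are called other sites.

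All libraries came from HEK293 cells, an embryonic kidney line, grown with the uridine analogue 4-thiouridine, crosslinked with long-wave UV light and digested with RNase T1, which cuts after G. The background group held G20, G35 and G45, which are single libraries from gel slices near 20, 35 and 45 kDa of a FLAG immunoprecipitation from cells with an inducible FLAG-tagged GFP. The HuR group held 2 replicates of a FLAG immunoprecipitation from cells with inducible FLAG-tagged HuR. Total was 1 library of RNA depleted of ribosomal RNA from a lysate treated in the same way without immunoprecipitation. HuR was therefore an added, tagged copy in a cell line, and no source states that its replicates came from separate cultures, so the p-values below measure only the spread between these libraries. The slices are sizes of 1 control rather than repeats of it.

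HuR (ELAVL1) is an RNA-binding protein that binds U-rich and AU-rich stretches, mostly in 3'UTRs and introns, and is known for lengthening the life of unstable mRNAs. AU-rich elements, in which the pentamer AUUUA recurs, mark many immediate early mRNAs for decay, and HuR competes there with proteins that promote decay. In PAR-CLIP a crosslinked 4-thiouridine is read as C, so T-to-C conversions are frequent where RNA was crosslinked, but 4-thiouridine that was not crosslinked can also be read as C.

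Exon reads of protein-coding genes numbered between 329864 (G45) and 4055993 (Total), and levels are given as RPM, the reads of a gene or region per 1000000 of these exon reads. One read was worth much less in Total and HuR replicate 2 than elsewhere: the floor of 3 reads lay at 0.740 RPM in Total, 0.979 in HuR replicate 2, 4.56 in HuR replicate 1 and 9.09 in G45. The gene HASPIN took between 1.99% (HuR replicate 2) and 33.3% (G35) of exon reads, which lowers the level of every other gene in a library by that share. HEK293 markers IGF2BP1, LIN28B and NEFL had 3191, 627 and 362 exon reads in Total, but NEFM had only 4 and PAX2 17. Markers of liver, blood and fibroblasts had between 0 and 41.

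The sequences at the leading HuR sites come first. They are the 2 stretches with the most HuR reads in each 3'UTR, cut to the 30 consecutive bases with the most T where longer, in the sense of the mRNA on GRCh37. The cut favours T, so a window shown does not give the T content of its whole stretch. Capitals mark ATTTA and runs of 5 or more T. All 799 member sites in the files matched GRCh37 base for base. No sequence is shown for MYC, and none for ATF4, whose 3'UTR held no HuR site wholly inside the annotated gene.
JUN first, chr1:59247206-59247229, minus strand: tacatatatataTTTTTTaatttg
JUN second, chr1:59247237-59247266, minus strand: tgaactctttctggcctgccttcgttaact
JUND first, chr19:18390759-18390788, minus strand: tgtgtgtgtgttttcttgtgttggTTTTTT
JUND second, chr19:18390645-18390674, minus strand: tcccTTTTTTgttctgttttgttttgtttt
FOS first, chr14:75748755-75748784, plus strand: ttttattgtgTTTTTaATTTATTTAttaag
FOS second, chr14:75748703-75748729, plus strand: cattgttgaggtggtctgaatgttctg
EGR1 first, chr5:137804190-137804219, plus strand: atttcgTTTTTcttggggtactcttgatgt
EGR1 second, chr5:137804740-137804769, plus strand: tctaTTTTTTTaactgaaaatgtaaATTTA
IER2 first, chr19:13265006-13265035, plus strand: tgTTTTTTgttttgtttgtttgtttgtttt
IER2 second, chr19:13265362-13265391, plus strand: agcggggactgatctactttcacattctca

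For contrast, the leading G20 site of JUN, JUND and EGR1 and the leading G35 site of EGR1 are given, cut in the same way. These 4 hold few T, 0.00% to 20.0% of the bases shown, and many G. They are examples: among the other leading slice sites cut in this way T reached 30% for ATF4 in G45, and the FOS site of G35, which lies over the first HuR stretch of FOS, held 56.7% T with ATTTA and TTTTT.
JUN in G20, 3'UTR, chr1:59247290-59247319, minus strand: ttggggaggggcggcaggagggaggtttgt
JUND in G20, 5'UTR, chr19:18392392-18392421, minus strand: ccagtggagggccgggcgctgcggccgcgg
EGR1 in G20, coding sequence, chr5:137801639-137801668, plus strand: cagcagcagcagcgggggcggtggaggcgg
EGR1 in G35, 3'UTR, chr5:137803769-137803792, plus strand: aaagggaaaggggaaagaaaggga

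The first comparison asked where on each mRNA the reads lay. In 6 of the 7 mRNAs the 3'UTR took a larger share of the reads in both HuR libraries than in any background slice, with ATF4 as the exception. Over the 7 genes together the 3'UTR share of exon reads was 72.5% in HuR replicate 1 and 87.1% in replicate 2 (79.8% ± 10.3, SD, n = 2), against 23.0%, 34.5% and 20.6% in G20, G35 and G45 (26.0% ± 7.46, SD, n = 3). In Total it was 26.2%, with a Wilson 95% interval of 24.7% to 27.8% that covers counting error only. The HuR values lay above all others, and Total lay within the range of the slices. With 3 slices against 2 libraries an exact permutation test cannot reach 0.05, and none was run.

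**Figure D1:**
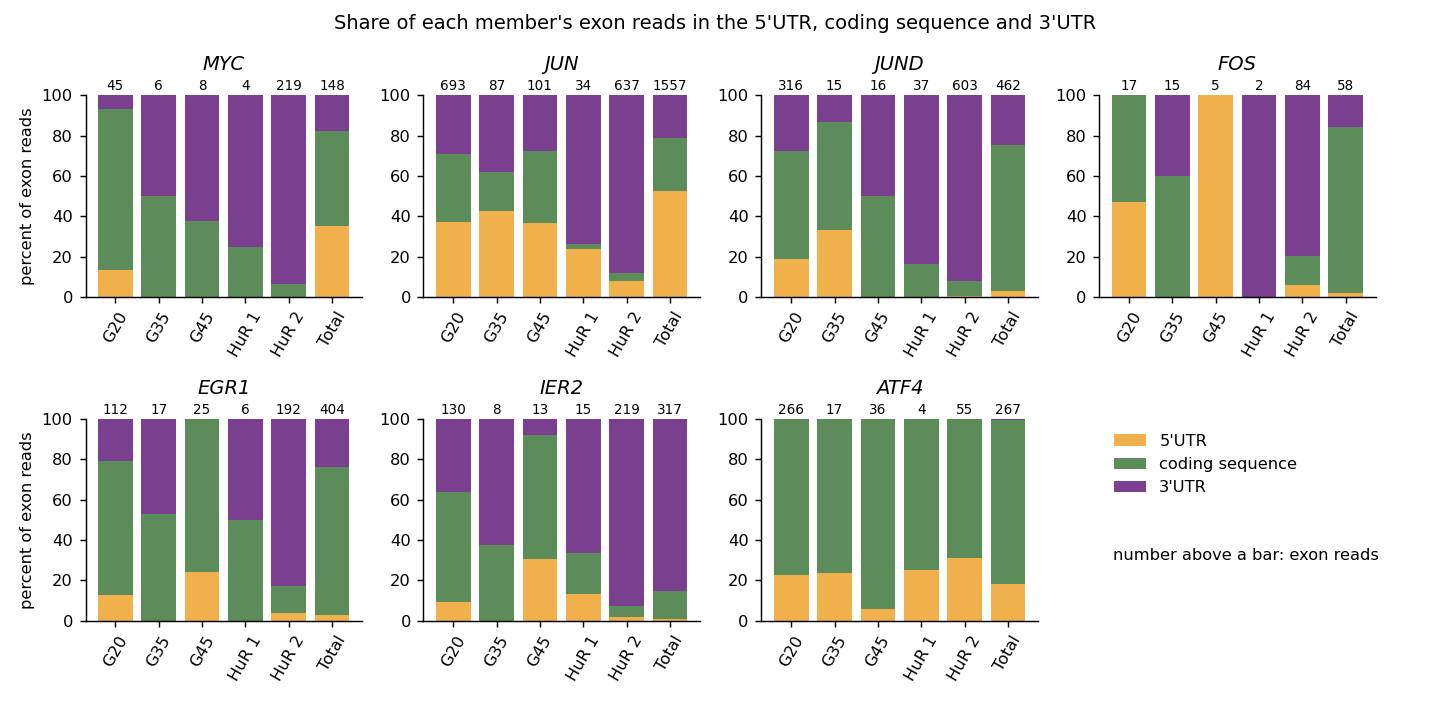
Share of each mRNA's exon reads (percent, vertical axis) that fell in the 5'UTR, coding sequence and 3'UTR in each library, with the number of exon reads above each bar. The 3'UTR part fills 50% or more of every HuR bar except those of ATF4, and some bars rest on fewer than 10 reads.

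The same contrast was wide across the transcriptome. Of 7687 genes with a 3'UTR and at least 1 exon read in each of the 5 HuR and background libraries, 44.6% had a higher 3'UTR share in both HuR libraries than in every slice, against 6 of the 7 members. A lower coding sequence share in both HuR libraries than in every slice was found in 38.5% of those genes and in 6 of 7 members, all but FOS. Over the 7687 genes the median 3'UTR share was 71.4% in HuR replicate 1 and 84.8% in replicate 2. It was 20.0%, 28.6% and 30% in G20, G35 and G45. With the reads of all protein-coding genes pooled, without that filter, the share was 42.1% in HuR replicate 1, under the members' 72.5%. In replicate 2 the pooled share was 86.3%. HASPIN alone had 20.0% of the exon reads of HuR replicate 1, and its part in the pooled share was not tested. In Total the median over the 7687 genes was 40.2%, above the 26.2% of the members.

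JUN, a subunit of the AP-1 transcription factor, had 3'UTR shares of 29.3%, 37.9% and 27.7% in G20, G35 and G45, 73.5% and 87.9% in HuR replicates 1 and 2, and 20.9% in Total. Every HuR value exceeded every background value. JUN also had the longest 5'UTR of the members, 977 nt, and that region held 36.6% to 42.5% of its exon reads in the slices and 52.4% in Total, but 23.5% and 8.01% in the HuR replicates.

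JUND, an AP-1 subunit whose expression varies less than that of its relatives, had 3'UTR shares of 27.5%, 13.3% and 50% in the slices, 83.8% and 92.2% in HuR and 24.7% in Total. FOS, the usual partner of JUN and the classic immediate early mRNA with an AU-rich element, had 0.00%, 40.0% and 0.00% in the slices, 100% of 2 reads in HuR replicate 1, 79.8% of 84 reads in replicate 2, and 15.5% in Total. MYC, a growth regulator with a short-lived mRNA, had 6.67%, 50% and 62.5% in the slices, 75% of 4 reads and 93.6% of 219 reads in HuR, and 17.6% in Total. For FOS and MYC the slices and HuR replicate 1 rest on 45 exon reads or fewer each.

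EGR1, a zinc finger factor induced within minutes by growth signals, had 20.5%, 47.1% and 0.00% in the slices, 50% of 6 reads and 82.8% of 192 reads in HuR, and 23.5% in Total. IER2, a nuclear regulator of the immediate early response, had 36.2%, 62.5% and 7.69% in the slices and 66.7% and 92.7% in HuR. Unlike the other members, IER2 had a high 3'UTR share in Total too, 85.5%, and 156 of its Total reads came from 1 site of 24 bases. ATF4, the effector of the integrated stress response, has an annotated 3'UTR of only 84 nt. By sites wholly inside the gene it had 1 3'UTR read, in Total, and its HuR reads were split between coding sequence (75% and 69.1%) and 5'UTR. A HuR replicate 2 site of 22 reads with 19 events (chr22:39918618-39918689) and a G20 site of 9 reads with 0 events (chr22:39918608-39918689) ran 1 base past the annotated end and were left out by that rule. With them the ATF4 3'UTR share was 28.6% in HuR replicate 2 and 3.27% in G20, and it stayed at 0 in HuR replicate 1, G35 and G45. Of the other members only JUN and JUND had a site past an end, of 1 read each.

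The second comparison asked whether the 3'UTRs held more reads in HuR than in background. Summed over the 7 genes the 3'UTR level was 485, 158 and 127 RPM in G20, G35 and G45, 113 and 571 in HuR replicates 1 and 2, and 208 in Total. The groups overlapped, because HuR replicate 1 lay below every slice and replicate 2 above every slice. JUN alone had 203 of the 363 reads of G20.

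**Figure D2:**
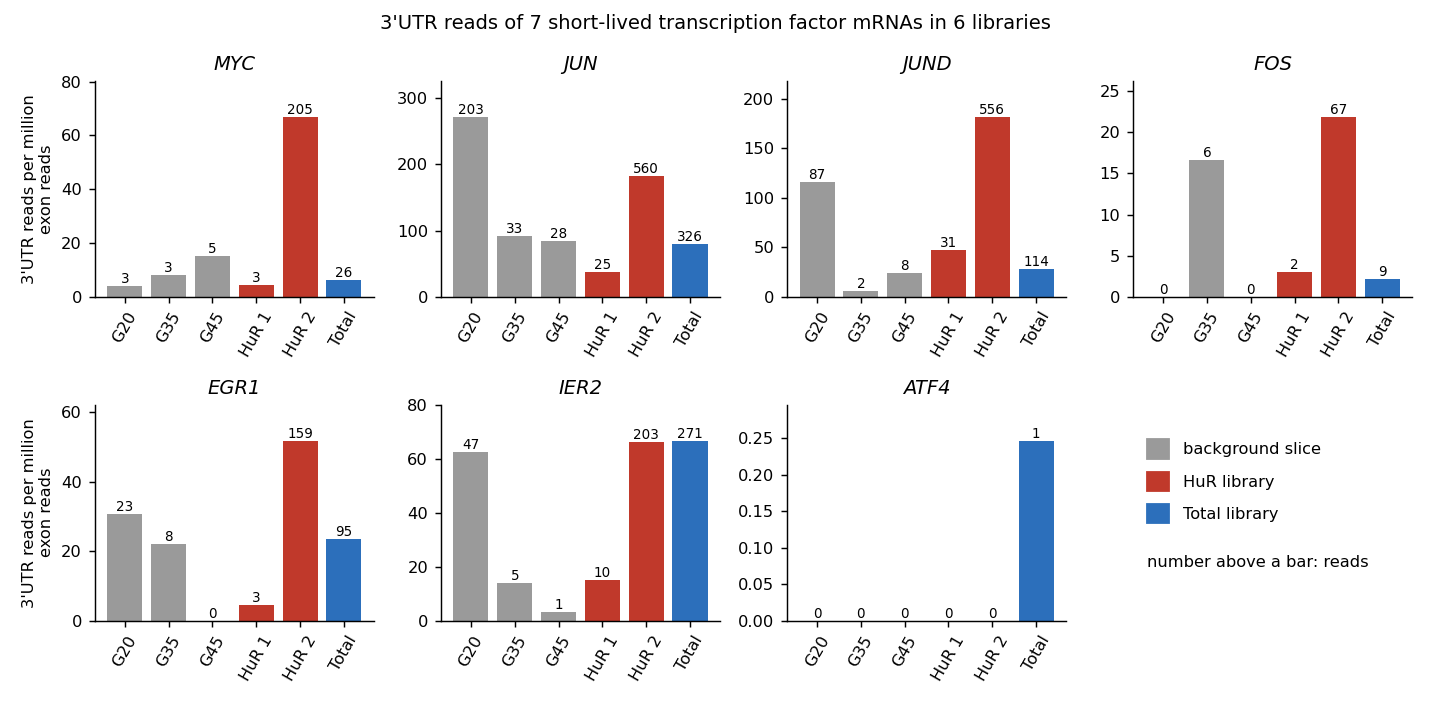
Level of the 3'UTR of each mRNA in RPM (reads per 1000000 exon reads, vertical axis, each panel on its own scale from 0) in the 6 libraries, with the read number above each bar. HuR replicate 2 has the highest bar for JUND, FOS, EGR1 and MYC, G20 for JUN, and those of Total and HuR replicate 2 are level for IER2 (66.8 and 66.2), while ATF4 shows a single read at sites wholly inside the gene.

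Across all genes edgeR's quasi-likelihood test with Benjamini-Hochberg adjustment over 4782 genes called 13.2% higher and 1.07% lower in HuR. Of the 7 members 4 had enough reads to be tested and 0 were called. At an unadjusted p under 0.05 the number was also 0, beside 1769 higher and 181 lower over all genes, and DESeq2 called 0, beside 1288 higher and 116 lower. The median log2 difference of the 4 was 0.39, beside 1.74 over all tested genes.

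JUND had 87, 2 and 8 reads in G20, G35 and G45, 31 and 556 in HuR and 114 in Total, or 116, 5.54, 24.3, 47.1, 181 and 28.1 RPM. G20 lay between the HuR libraries, and the log2 difference of HuR over background was 1.11 (SE 0.96, edgeR adjusted p = 0.360). JUN had 203, 33 and 28 reads in the slices, 25 and 560 in HuR and 326 in Total, or 271, 91.5, 84.9, 38.0, 183 and 80.4 RPM. Every slice exceeded HuR replicate 1, and the log2 difference was -0.68 (SE 0.85, edgeR adjusted p = 0.528), a sign that turned to 1.08 with all reads as library size.

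IER2 had 47, 5 and 1 reads in the slices, 10 and 203 in HuR and 271 in Total, or 62.8, 13.9, 3.03, 15.2, 66.2 and 66.8 RPM. Its log2 difference was 0.46 (SE 1.12, edgeR adjusted p = 0.758). EGR1 had 23, 8 and 0 reads in the slices, 3 and 159 in HuR and 95 in Total, or 30.7, 22.2, 0.00, 4.56, 51.9 and 23.4 RPM, with a log2 difference of 0.31 (SE 1.28, edgeR adjusted p = 0.852). For both genes the HuR and background values overlapped, and the sign turned when HuR replicate 2 was left out (-0.12 for IER2, -1.39 for EGR1) and when G45 was left out (-0.093 and -0.26). EGR1 in G45, with 0 reads, allows up to 9.09 RPM by counting error alone.

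MYC, FOS and ATF4 did not pass the filter on low counts. MYC had 3, 3 and 5 3'UTR reads in the slices, 3 and 205 in HuR and 26 in Total, so HuR replicate 2 stood alone at 66.9 RPM while the other 5 libraries lay between 4.01 and 15.2. FOS had 0, 6 and 0 reads in the slices, 2 and 67 in HuR and 9 in Total. Both carry AU-rich elements, with 6 and 5 copies of ATTTA in the annotated 3'UTR. Both had most of their 3'UTR reads in HuR replicate 2, which has more exon reads than replicate 1 or any slice. So did JUND and EGR1, with 1 ATTTA each, so this was not particular to MYC and FOS. The 6 reads of G35 put FOS at 16.6 RPM there, beside 21.9 in replicate 2.

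Per kilobase of 3'UTR the order in HuR replicate 2 was JUND (242 RPM per kilobase), JUN (142), IER2 (62.7), EGR1 (42.3), MYC (33.5) and FOS (27.0). In HuR replicate 1 it was JUND (62.9), JUN (29.5), IER2 (14.4), FOS (3.76), EGR1 (3.72) and MYC (2.29), of which the last 3 rest on 3 reads or fewer each and cannot be ordered. JUND and JUN thus led both HuR libraries, while in G20 JUN (211) came before JUND (155). JUN also led in G35 (71.1, with JUND at 7.39) and in G45 (66.0, with JUND at 32.3). In Total IER2 (63.3) and JUN (62.5) came before JUND (37.5), so the high place of JUN was not particular to HuR.

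Against Total the slices and the HuR libraries were set side by side with no test, since Total is 1 library. A level over 2-fold above Total in both HuR libraries, with a pseudocount of 3 reads scaled to the library, was found in 16.0% of the 4782 tested genes and in 0 of the 4 tested members. The same in all 3 slices was found in 2.66% of genes and in 0 of the 4 members. HuR replicate 2 stood 6.10-fold above Total for JUND, 2.24-fold for JUN, 2.12-fold for EGR1 and 0.991-fold for IER2, and replicate 1 stood at 1.63, 0.485, 0.257 and 0.250. For MYC, which was not tested, the ratios were 8.23 in replicate 2 and 0.779 in replicate 1.

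In the coding sequence the members were low in HuR. Together they had 1067, 172 and 327 RPM in G20, G35 and G45, 25.8 and 56.4 in HuR and 352 in Total, so both HuR libraries lay below every other library. edgeR's quasi-likelihood test called 0.00% of 4174 genes higher and 0.00% lower at an adjusted p under 0.05, while 1995 had an unadjusted p under 0.05 and lower values in HuR, and DESeq2 called 1455 lower. All 5 members tested were lower in HuR at an unadjusted p under 0.05, 0 by the adjusted edgeR test and 4 by DESeq2 (JUN, EGR1, IER2 and ATF4). The median log2 difference was -3.32 for the members and -2.58 over all tested genes.

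JUN had 232, 17 and 36 coding reads in the slices, 1 and 26 in HuR and 415 in Total. In RPM these were 310, 47.1 and 109 in the slices, 1.52 and 8.48 in HuR and 102 in Total, with no overlap, and the log2 difference was -5.01 (SE 1.18, edgeR adjusted p = 0.0539). ATF4 had 206, 13 and 34 in the slices, 3 and 38 in HuR and 218 in Total, and its RPM values, 275, 36.0 and 103 against 4.56 and 12.4, did not overlap either (log2 difference -4.08, SE 1.10, edgeR adjusted p = 0.0539).

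EGR1 had a log2 difference of -3.32 (SE 0.95, edgeR adjusted p = 0.0539), from 75, 9 and 19 reads against 3 and 26. IER2 gave -3.27 (SE 1.16, edgeR adjusted p = 0.0633), from 71, 3 and 8 against 3 and 12, and JUND gave -2.83 (SE 1.13, edgeR adjusted p = 0.0820), from 170, 8 and 8 against 6 and 45. The test has few libraries, and without G20 the adjusted p of JUN, EGR1 and ATF4 fell to between 0.0371 and 0.0372, past the threshold. Against Total, 73.6% of the 4174 tested genes were more than 2-fold below its coding level in both HuR libraries, and 4 of the 5 tested members were, IER2 being the exception with ratios of 0.509 and 0.458.

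Over the whole of the exons edgeR called 0.00% of 8096 genes in either direction (993 higher and 1377 lower at an unadjusted p under 0.05, with DESeq2 calling 592 and 882). Of 6 members tested, 0 were called, 2 were lower at an unadjusted p under 0.05 and DESeq2 called ATF4 lower. ATF4 had the largest difference, -3.87 (SE 0.87, edgeR adjusted p = 0.0696), from 266, 17 and 36 exon reads in the slices against 4 and 55 in HuR. With merged exons of all transcripts, which take in the 29 reads of a HuR replicate 1 site described below, it was -1.83. JUN followed with -2.12 (SE 0.80, edgeR adjusted p = 0.124), and MYC was at -0.13 (SE 0.92, edgeR adjusted p = 0.937), which turned to 0.13 with DESeq2 size factors.

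The list of 30 other short-lived regulator mRNAs, which holds the relatives JUNB, FOSB, EGR2 and IER3 among others, was counted in the same way. In the 3'UTR 9 were tested and 0 were called by edgeR or DESeq2, 1 was higher at an unadjusted p under 0.05, and the median log2 difference was 0.37. In the coding sequence 6 were tested, 0 called by edgeR and 3 called lower by DESeq2, with a median of -2.93. The 3'UTR share was higher in both HuR libraries than in all slices in 6 of the 16 with enough reads, beside the 44.6% of all genes.

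SOX4, a developmental factor and the most abundant of the list in Total, had 334, 109 and 117 3'UTR reads in the slices, 240 and 4147 in HuR and 680 in Total (log2 difference 0.88, SE 0.93, edgeR adjusted p = 0.455). KLF6, a zinc finger factor, had 26, 11 and 5 against 30 and 668 (1.93, SE 0.91, edgeR adjusted p = 0.118). MAFG, a small Maf protein, had 49, 15 and 9 against 19 and 135 (-0.42). Of the least abundant, CEBPB had 43, 16 and 4 against 26 and 440 (0.99), FOSL2, another AP-1 subunit, 15, 7 and 9 against 12 and 134 (0.19), and HES1, the Notch target, 1, 0 and 12 against 3 and 95 (0.03). None of these 6 passed the test.

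The genes whose 3'UTR profile over the 6 libraries was nearest to the mean of the 4 tested members, by Euclidean distance of log2(RPM + 1) among 4778 others, were MLLT6 (distance 0.91), PSENEN (0.96) and NFIX (1.08). MLLT6 had 85.5, 22.2 and 9.09 RPM in the slices, 31.9 and 82.9 in HuR and 60.2 in Total. As in the members' mean, the lowest values were those of G35, G45 and HuR replicate 1 in all 3. This likeness follows from their choice by nearness to that mean.

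Within the 3'UTRs the reads of HuR were gathered at a few places. Stretches are given in raw reads, which do not compare levels between libraries. For 3 reads the level was 4.01, 8.32 and 9.09 RPM in G20, G35 and G45. It was 4.56 and 0.979 RPM in HuR replicates 1 and 2, and 0.740 in Total. In JUND the first stretch, 416 to 512 nt into the 3'UTR, had 289 reads in HuR replicate 2, 9 in replicate 1, 5 in Total and 0 in each slice. It held 50.8% of the HuR reads of that 3'UTR, and its only ATTTA lies within TATTTAT, the core of an AU-rich element. The site of replicate 1 there covered 31 bases, of which these 30 are shown for the motif.
JUND in HuR replicate 1, chr19:18390799-18390828, minus strand: ccctATTTAtgtttctactcgggaacaaac

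The second JUND stretch, the one with repeated runs of T, had 179 and 10 reads in HuR replicates 2 and 1, 2 in G20, 0 in G35 and G45 and 16 in Total. Both leading JUND stretches thus had almost no background reads, whereas a stretch 278 to 317 nt into the same 3'UTR had 56 reads in G20 and 52 in Total against 3 and 19 in HuR.

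In JUN the first stretch, 521 to 544 nt into the 3'UTR, had 223 reads in HuR replicate 2 and 3 in replicate 1, but also 7 in G35, 15 in G45 and 37 in Total, with 0 in G20. The conversions differed there: HuR replicate 2 had 233 conversion events on its 223 reads and replicate 1 had 3 on 3, whereas G35 had 0 on 7, G45 had 1 on 15 and Total 7 on 37. The second JUN stretch, 387 to 514 nt in, lay over the G-rich site of G20 shown above. It had 114 reads and 17 events in G20, 73 reads and 82 events in HuR replicate 2, and 7 reads and 7 events in replicate 1.

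In MYC the first stretch, chr8:128753385-128753412, lay 184 to 211 nt into the 3'UTR and held 50.5% of its HuR reads. It had 103 reads with 135 events in HuR replicate 2, 2 with 3 in replicate 1, 2 with 4 in G45, 0 in G20 and G35, and 4 with 3 in Total. The next stretches by reads lay within 391 nt of the start of the 3'UTR, so the leading MYC sites were all in the first part of a 3'UTR of 1996 nt.

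In FOS the first stretch, which holds 2 overlapping copies of ATTTA, had 22 reads in HuR replicate 2, 0 in replicate 1, 6 in G35 and 0 in Total. The 6 reads were all the FOS 3'UTR reads of G35, at 16.6 RPM. The 22 were only part of the 67 in HuR replicate 2, which came to 21.9 RPM in all. The 6 background reads carried 12 events, the most a read can carry being 2, and the 22 HuR reads carried 16. The second FOS stretch had 19 reads with 9 events in HuR replicate 2 and 0 reads in every other library. Replicate 1 had 2 sites of 1 read each in this 3'UTR, and 0 of them overlapped a site of replicate 2.

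In EGR1 the first 3 stretches had 45, 34 and 25 reads in HuR replicate 2, 2, 0 and 1 in replicate 1, and 0 in every slice. Total had 0, 21 and 1. EGR1 reads in G35 came instead from the A- and G-rich start of the 3'UTR shown above, where G20 had 8, G35 7 and Total 19 reads, and both HuR libraries 0.

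In IER2 the first stretch, 289 to 426 nt into the 3'UTR, held 66.2% of the HuR reads, 137 in replicate 2 and 4 in replicate 1, and had 11, 5 and 1 reads in the slices and 6 in Total. HuR replicate 2 had 155 events there. The second stretch was the reverse, with 75 reads in Total against 15 and 1 in HuR. The IER2 3'UTR holds no ATTTA, and the 30 bases richest in T of its leading HuR stretch, shown above, hold TTTG repeats.

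**Figure D3:**
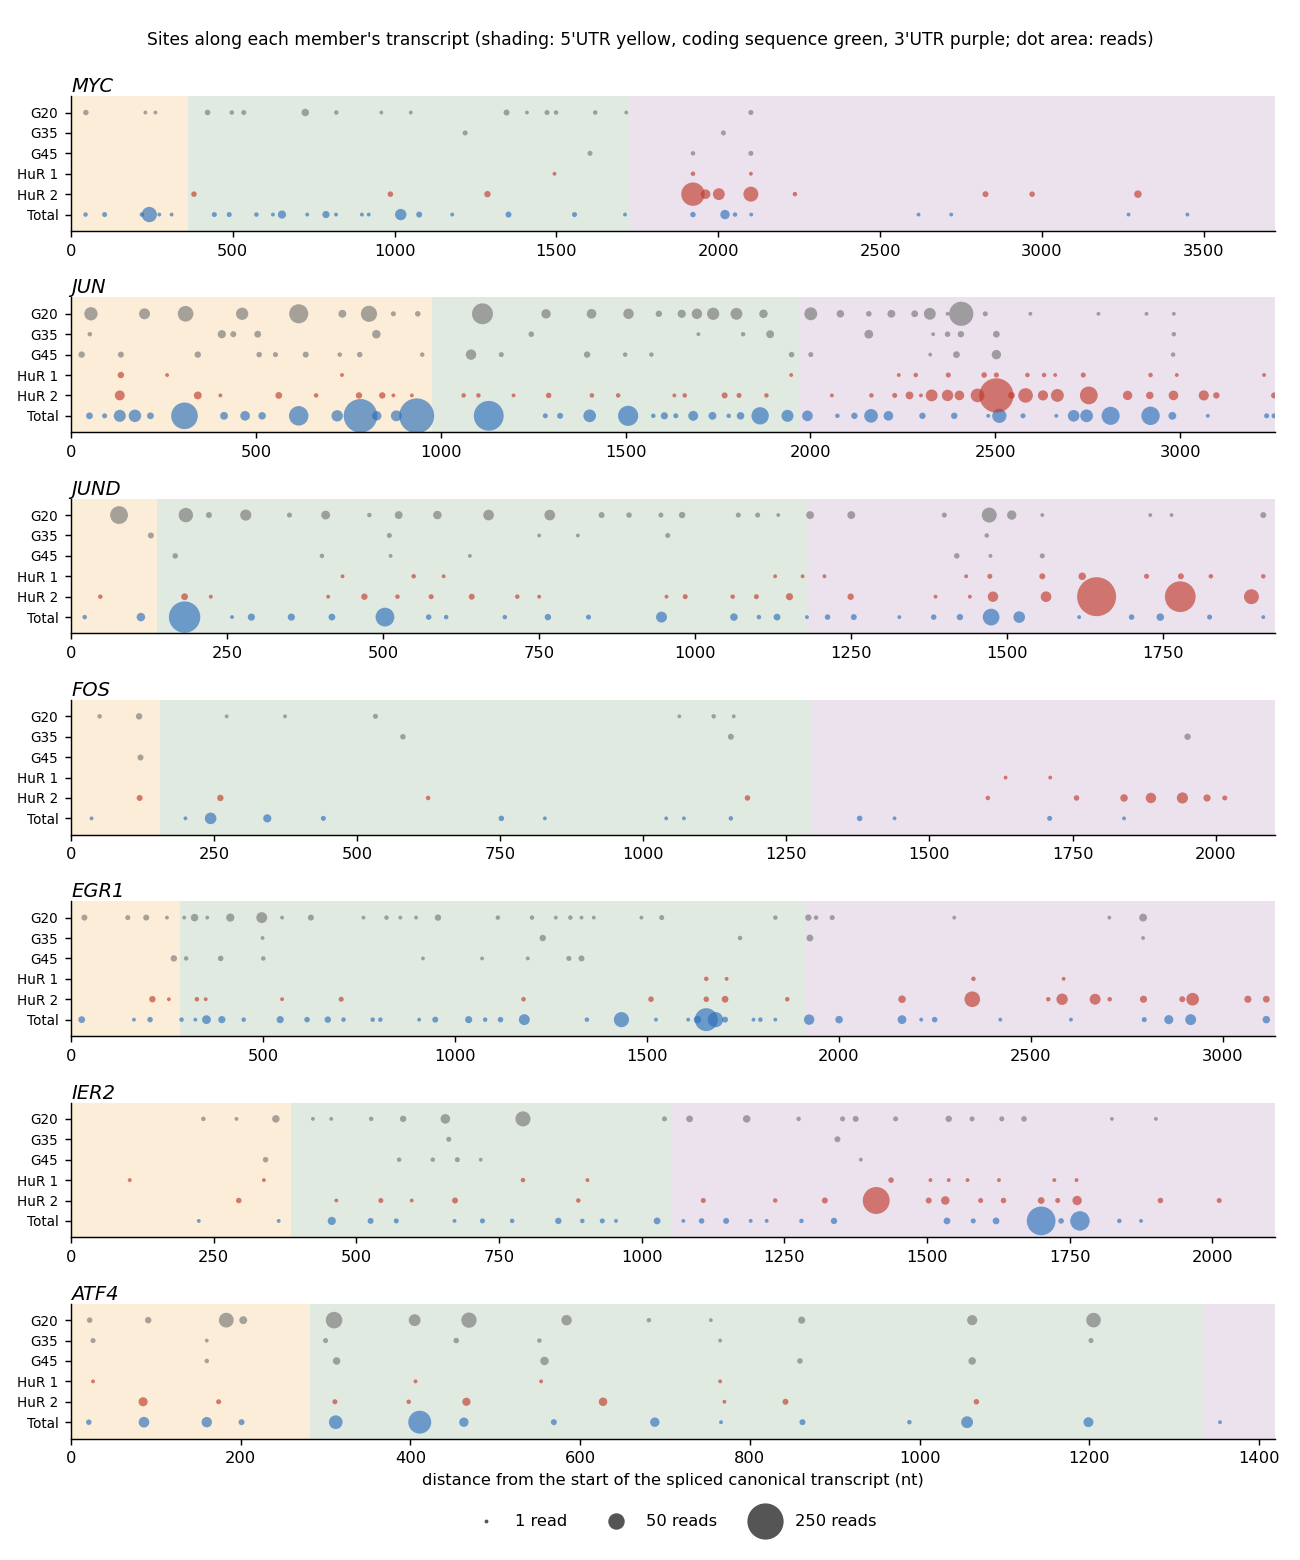
Every exon site of the 7 mRNAs by the distance of its midpoint from the start of the spliced transcript (horizontal axis, nt), with a row for each library and dot area rising with reads. The large HuR replicate 2 dots sit in the 3'UTR shading of JUND (289 reads), JUN (223), IER2 (137) and MYC (103). In JUN, JUND, EGR1 and IER2 the G20 and Total dots lie in the 5'UTR, coding sequence and 3'UTR. Large 3'UTR dots of these libraries are in JUN (110 reads, G20) and IER2 (156, Total). G20 has 1 3'UTR dot in MYC and 0 in FOS and ATF4.

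In ATF4 the top site of HuR replicate 2 wholly inside the gene had 14 reads, fewer than the 22 of the site that runs past its end. These 14 reads carried 14 events in the 5'UTR at chr22:39916636-39916667, where Total had 20 and G20 6. The top site of replicate 1, an other site of 16 bases at chr22:39915755-39915770, had 29 reads with 1 event and 0 reads in every other library, and it was 61.7% of that library's ATF4 reads. The leading G45 and G35 site of MYC, chr8:128749836-128749855 in an intron, had 19 and 7 reads with 0 events there, 1 read in G20, 1 and 3 in HuR replicates 1 and 2, and 0 in Total.

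The HuR replicates were compared site by site. Of 34 3'UTR sites of the members in HuR replicate 1, 31 overlapped a site of replicate 2, and of 68 sites in replicate 2, 31 overlapped one of replicate 1. These 31 held 81.5% of the 1750 reads of replicate 2. The share ran from 99.8% for JUND, 88.2% for IER2 and 85.9% for JUN to 70.2% for MYC, 42.8% for EGR1 and 0.00% for FOS. Replicate 1 had 74 member 3'UTR reads in all, and the part of its depth in the missing sites was not tested.

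Overlap with background was counted for every HuR read at a site that shares at least 1 base with a site of any slice on the same strand. It was 52.0% of the 175 member reads in HuR replicate 1 (Wilson 95% interval 44.6% to 59.3%) and 61.4% of 2267 in replicate 2 (59.4% to 63.4%). In the 3'UTR it was 64.9% and 63.1%, beside 50.8% and 51.1% of the 3'UTR reads of all genes. Intervals cover counting error only, and reads of 1 site are not independent.

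The members differed widely in this share. In the 3'UTR of HuR replicate 2 it was 86.2% for IER2 (Wilson interval 80.8% to 90.3%), 82.4% for MYC and 82.3% for JUN, 48.0% for JUND (43.9% to 52.2%), 32.8% for FOS and 6.29% for EGR1 (3.45% to 11.2%). For FOS the interval was 22.8% to 44.7%. A site counts wholly as overlapping or not, so these intervals over reads cannot order the genes. By sites the order was another: 7 of 8 overlapped for JUND, 14 of 21 for JUN and 8 of 13 for IER2. For MYC 3 of 8 did, for EGR1 2 of 11 and for FOS 1 of 7. The first JUND stretch, with 289 reads in replicate 2, had 0 in each slice. A few background reads sufficed: the overlap at the first MYC stretch rests on 2 reads of G45. In the coding sequence 80.3% of the members' reads in replicate 2 overlapped background, beside 63.6% for all genes, with 0 of 14 for MYC, and in the 5'UTR all 86 did. In replicate 1, 76.5% of the members' 17 coding reads overlapped (Wilson interval 52.7% to 90.4%), beside 86.9% for all genes, so no order can be given. HASPIN had 20.0% of the exon reads of that library. By coding sites the overlap in replicate 1 was 78.6% of 14 for the members and 35.8% for all genes. In replicate 2 it was 84.6% and 44.4%. For ATF4 over all its sites the overlap was 96.2% of 79 reads in replicate 2 but 27.7% of 47 reads in replicate 1.

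Over the members together, conversion events per 100 reads were higher at HuR 3'UTR sites than in any other library. There were 107 events per 100 reads in each HuR replicate (106.8 ± 0.07, SD, n = 2), against 17.4, 57.9 and 33.3 in G20, G35 and G45 (36.2 ± 20.4, SD, n = 3) and 12.9 in Total. A read can carry up to 2 events, so this is not a share. Over the 3'UTR sites of all genes the values were 82.6 and 102 in HuR, 29.0, 60.2 and 51.4 in the slices and 19.4 in Total, in the same order of groups.

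In JUN the 3'UTR values were 20.2, 33.3 and 25 in the slices, 96.0 and 111 in HuR and 13.2 in Total. In JUND they were 10.3, 100 and 37.5, 116 and 108, and 7.89, where the 100 of G35 is 2 reads. Members with few background reads did not all follow this: FOS had 200 in G35, on 6 reads, against 100 and 71.6 in HuR, and IER2 had 100 in G35, on 5 reads, against 100 and 108. In the coding sequence the groups overlapped: the members together had 13.5, 59.7 and 81.5 in the slices, 64.7 and 82.1 in HuR and 11.7 in Total. ATF4 coding reads in G45 carried 115 events per 100 reads, against 18 in G20 and 108 in HuR replicate 2.

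**Figure D4:**
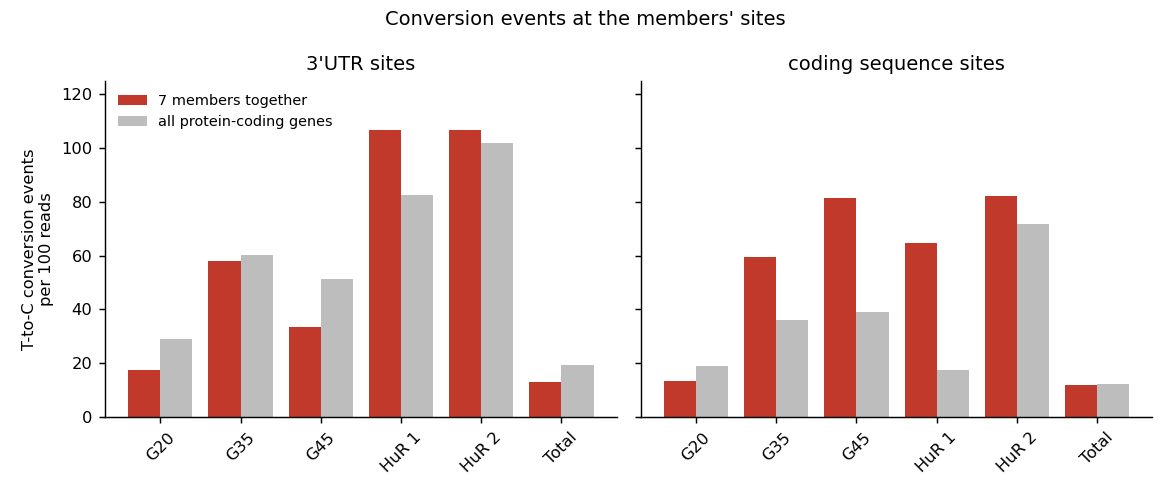
T-to-C conversion events per 100 reads (vertical axis) at 3'UTR sites and coding sequence sites of the 7 mRNAs together and of all protein-coding genes, by library. Both HuR bars stand near 107 for the members' 3'UTR sites and above every slice, while in the coding sequence G45 (81.5) and HuR replicate 2 (82.1) are level.

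The motif search asked how many 3'UTR reads lay at sites holding ATTTA, a run of 5 T (TTTTT), or the AU-rich heptamer TATTTAT, which contains the first, on the strand of the gene, a match being a description of the sequence only. In HuR replicate 2, 24.7% of the members' 3'UTR reads lay at sites with ATTTA, 18.2% with TATTTAT and 67.4% with TTTTT. Over all genes the shares in that library were 17.9%, 3.50% and 48.0%. In replicate 1 they were 14.9%, 13.5% and 28.4% for the members, and 8.23%, 1.37% and 18.9% for all genes. In Total they were 2.97%, 0.119% and 6.41% for the members, under the 8.35%, 1.36% and 9.73% of all genes. In G20 they were 0.826%, 0.00% and 1.38% for the members, under the 3.00%, 1.02% and 7.29% of all genes. The other slices lay higher, on few reads: G35, with 57, had 10.5%, 10.5% and 22.8%, and G45, with 42, had 7.14%, 0.00% and 57.1%, so for TTTTT the HuR and background values overlapped.

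The TATTTAT share came from few sites, 3 in HuR replicate 2 and 2 in replicate 1, and 289 of its 319 reads in replicate 2 were the first JUND stretch. By gene the ATTTA share in HuR replicate 2 was 52.0% for JUND, 44.8% for FOS, 32.2% for MYC, 18.2% for EGR1, 3.21% for JUN and 0.00% for IER2. The TTTTT share was 87.8% for JUND, 82.4% for MYC, 67.5% for IER2, 59.1% for EGR1, 58.2% for FOS and 45.2% for JUN. JUN thus lay under the 48.0% of all genes for TTTTT. In replicate 1 the TTTTT share was 0 for FOS and EGR1, on 2 and 3 reads. Longer sites hold more motifs by length alone, and the part of site length in these shares was not tested.

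**Figure D5:**
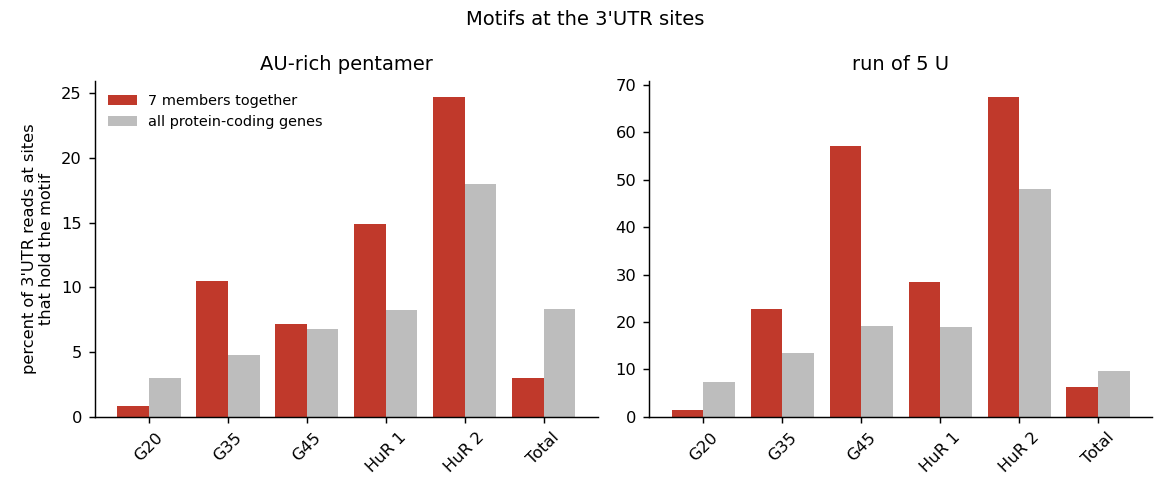
Percent of 3'UTR reads (vertical axis, each panel on its own scale from 0) at sites that hold the AU-rich pentamer or a run of 5 U, for the 7 mRNAs together and for all protein-coding genes, by library. For the members both are higher in HuR replicate 2 (24.7% and 67.4%) than in G20 (0.826% and 1.38%) or Total (2.97% and 6.41%), and G45, with 42 reads, has 57.1% at runs of 5 U.

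The annotated 3'UTRs were set beside those of all genes. ATTTA occurred 6 times in MYC (chr8:128753202-128755197), 5 in FOS, 3 in JUN, once in JUND and EGR1 and not in IER2 or ATF4. Of 19420 annotated 3'UTRs 66.7% hold ATTTA, 31.2% TATTTAT and 74.0% TTTTT, and TTTTT occurred between 5 times (JUN) and 28 times (MYC) in 6 of the 7 members, ATF4 having none. FOS had the highest density of ATTTA, 6.18 per kilobase, beside 2.27 over all 3'UTRs.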

How the data were processed

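PAR-CLIP of 6 HEK293 libraries was analysed: G20, G35 and G45, 2 HuR replicates and Total. The authors removed adapters, mapped reads to hg19 with Bowtie and kept uniquely mapped reads with at most 2 T-to-C mismatches in PARalyzer. The deposited values are whole-number counts of reads, conversion locations and conversion events per site, not normalized. Removal of PCR duplicates was not stated. Versions were not given in the sources used here.

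Sites of the groups tables wholly within a gene span were summed by gene and region (GENCODE canonical transcript, lifted to GRCh37), and 0 columns of other series were present. HuR was tested against the slices with edgeR 4.0.16 (quasi-likelihood, TMM, filterByExpr, two-sided, adjusted p under 0.05 over all genes) and DESeq2 1.42.0. In a check on simulated data the edgeR test missed every 4-fold change and part of the 32-fold changes. A member that was not called may therefore still differ. The SE is the log2 difference divided by the root of the F statistic. Named were the 7 members, 6 of the 30 list genes (the 3 with the most and the 3 with the fewest Total 3'UTR reads among those tested), the 3 nearest profiles, the top site of each member per library and the 3 leading HuR stretches per 3'UTR. The members and lists were chosen with earlier results of these data known. Intervals are Wilson intervals.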

Additional observations from a re-analysis of the deposited data

How the results depend on the processing

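No paired analysis was possible because the slices carry no replicate number that pairs them with the HuR replicates. The numbers of genes called moved widely with the setting, and the cause was not tested. In the 3'UTR, 632 higher and 51 lower became 956 higher with DESeq2 size factors, 2107 and 4 with all reads as library size, 356 higher without a filter, 1288 and 116 with DESeq2, 0 and 0 with sites of 5 or more reads and 0 and 0 with the clusters tables. Leaving out 1 library gave 0 to 1381 higher (0 without G20, 4 without HuR replicate 1, 26 without HuR replicate 2) and 0 to 158 lower. In the coding sequence, 0 and 0 became 1 higher with all reads as library size, 49 and 222 without a filter and 30 and 1455 with DESeq2, and leaving out 1 library gave 0 to 109 higher and 0 to 1009 lower. Over exons, 0 and 0 became 62 and 122 with exon reads as library size, 1760 and 63 with all reads, 349 and 634 without a filter, 592 and 882 with DESeq2 and 2 lower with sites of 5 or more reads, and 0 to 199 higher and 0 to 496 lower with 1 library left out. With 1 HuR library left out the lone one is assumed to vary like the slices.

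The sign of the log2 difference turned with all reads as library size for JUN in the 3'UTR (1.08) and, over exons, for MYC (1.77), JUND (1.40), EGR1 (0.17) and IER2 (0.96). MYC over exons also turned with DESeq2 size factors (0.13), exon reads (0.21) and DESeq2 (0.12), and JUND with the clusters tables (0.58). With 1 library left out, 3'UTR differences ran from -1.40 to 0.36 for JUN, -1.39 to 1.55 for EGR1 and -0.12 to 1.51 for IER2, and exon differences from -1.89 to 1.13 for MYC, -0.93 to 0.64 for JUND and -1.12 to 0.049 for IER2. No coding sequence difference of a member turned, and without G35 JUN, EGR1, IER2 and ATF4 passed the test there (adjusted p = 0.048 each).

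The 3'UTR share in HuR and background moved by less than its SD under every alternative run. In Total it was 23.5% with the clusters tables and 31.2%, 19.7% and 28.5% without JUN, IER2 and ATF4. Conversion events per 100 reads of all member sites were 85.3 in HuR and 10.4 in Total; with the clusters tables they were 113 in HuR and 15 in Total, and Total was 12.9 at 3'UTR sites and 18.2 at sites of 1 read. The overlap with background, 52.0% and 61.4% in HuR replicates 1 and 2, was 44.0% and 47.6% where 0.5 of the HuR site had to be shared and 20.0% and 34.4% with background sites of 5 or more reads, and 24.0% to 50.9% and 37.5% to 58.8% with a slice left out, the lowest without G20. Merged exons of all transcripts and leaving HASPIN out of the exon reads, both chosen after seeing the data, changed no count by over 1.5 times, but ATF4 over exons went from -3.87 to -1.83 with merged exons. Members with under 10 reads in a library set the limit of depth.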
